A study of Mus musculus with 14 samples.

Results

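Keratins of simple epithelia and the Krt8 pseudogene row were examined in sorted mouse colon cells. The 7 members, of 55487 gene rows in all, were Krt7, Krt8, Krt18, Krt19, Krt20, Krt23 and Krt8-ps, each matched by gene symbol. They were chosen by name, without a cut-off on any value, after levels in the 4 groups had been seen in an earlier analysis of these data, so the values are given as a description and each p-value is set beside the same quantity over all genes. Bulk RNA of sorted cells was measured in 14 libraries. Colon epithelial cells (EpCam+, CD44 high, CD45-) came from 4 cre mice (Tsc2fl/fl Lyz2cre/+, 1 female and 3 male) and 4 wt mice (Tsc2fl/fl Lyz2+/+, 2 female and 2 male). Lamina propria macrophages (CD45+, CD11b+, CD64+, MHCII+) came from 3 cre mice, all male, and 3 wt mice, 2 female and 1 male. Every animal carried floxed Tsc2, whose protein is a subunit of the complex that restrains mTORC1, and no group had the cre allele without it. The cre allele sits in the lysozyme gene Lyz2 and acts in myeloid cells, so the epithelial comparison asked about cells next to macrophages of either genotype. No age was given. The number in each title was taken as that of the mouse. There are 4 such wt numbers whereas the series text counts 3 Tsc2fl/fl mice, so a pair of wt epithelial libraries may share an animal, and epithelial p-values would then be too small.

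Keratins build the intermediate filaments of epithelial cells. A filament needs a type I and a type II keratin in equal amounts, which pair before they assemble, and an unpaired partner protein is degraded. Krt8 (type II) and Krt18 (type I) are the general pair of simple epithelia, Krt7 is the other type II member, and Krt19, Krt20 and Krt23 are type I. In the intestine KRT20 marks mature surface cells, and mice without Krt8 develop colitis. Krt8-ps is annotated as a processed pseudogene, that is, a copy of a spliced messenger RNA set back into the genome.

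On GRCm38, both type II genes and Krt18 lie on chromosome 15. Krt7 spans chr15:101411043-101430313 on the plus strand, Krt8 spans chr15:101996698-102004482 on the minus strand and Krt18 spans chr15:102028180-102032027 on the plus strand. Krt8 and Krt18 are 23697 bases apart. The other type I genes lie on the minus strand of chromosome 11, Krt19 at chr11:100140810-100148665, Krt20 at chr11:99428403-99438150 and Krt23 at chr11:99477974-99493137. Krt8-ps is a single exon of 945 bases at chr7:23357125-23358069 on the plus strand, far from its parent, which has 9 exons and a 1958-base transcript.

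The sequence shared by Krt8 and Krt8-ps bears on every value of both rows, because reads were 50 bases long. Krt8-ps aligned to Krt8 over 941 bases without a gap, from the Krt8 start codon on, with 13 differences and 98.62% identity. In this stretch Krt8-ps runs through 5 Krt8 exon junctions. The longest run without a difference was 299 bases, from position 385 to position 683, counted from the A of the start codon as 1. Each difference is written with the Krt8 base first, and in order they were A154C, G158A, C198T, C242T, G384A, C684T, A701T, C819T, A843G, A875T, T876C, T915A and G920A. The pairs below are shown because they hold 10 of the 13 positions at which a read can tell the rows apart. Capitals mark the differing bases, and the sequences come from the GENCODE M21 transcripts on GRCm38. The first pair covers positions 142 to 254, in Krt8 exon 1 (chr15:102003986-102004098, minus strand) and in Krt8-ps (chr7:23357266-23357378, plus strand).
Krt8: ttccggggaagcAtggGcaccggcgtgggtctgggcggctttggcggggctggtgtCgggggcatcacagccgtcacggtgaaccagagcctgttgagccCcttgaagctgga
Krt8-ps: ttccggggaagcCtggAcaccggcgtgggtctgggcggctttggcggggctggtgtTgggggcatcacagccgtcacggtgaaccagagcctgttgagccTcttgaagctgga
The second pair covers positions 672 to 708, in Krt8 exon 4 (chr15:101999431-101999467, minus strand) and in Krt8-ps (chr7:23357796-23357832, plus strand).
Krt8: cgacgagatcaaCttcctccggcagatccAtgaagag
Krt8-ps: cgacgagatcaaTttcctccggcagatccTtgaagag
The third pair covers positions 874 to 932, in Krt8 exon 6 (chr15:101998458-101998516, minus strand) and in Krt8-ps (chr7:23357998-23358056, plus strand).
Krt8: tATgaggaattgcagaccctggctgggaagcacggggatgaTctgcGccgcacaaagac
Krt8-ps: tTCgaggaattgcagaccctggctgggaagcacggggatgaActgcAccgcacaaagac
A read from elsewhere can fit both rows. The next sequence is such a window of 50 bases, positions 527 to 576 of Krt8-ps (chr7:23357651-23357700, plus strand), identical in the Krt8 messenger RNA. Its capitals mark the last base of Krt8 exon 2 and the first base of exon 3.
Krt8-ps: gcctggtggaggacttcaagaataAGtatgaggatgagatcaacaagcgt
Krt8-ps holds these 50 bases unbroken in the genome, whereas an intron splits them in Krt8.

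**Figure D1:**
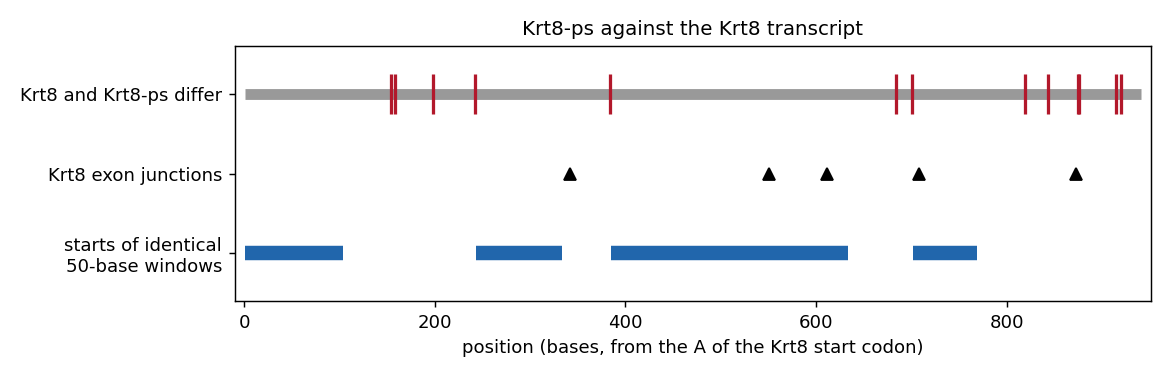
Map of the 941 aligned bases of Krt8-ps and the Krt8 transcript, by position from the start codon in bases: red bars mark the 13 differences, triangles the 5 Krt8 exon junctions inside the stretch, and blue bars the starts of 50-base windows identical in both. The widest blue bar, of 250 window starts, begins at position 385.

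Of the 1909 distinct 50-base windows of the Krt8 transcript, 514 (26.9%) also occur in Krt8-ps, and these are 57.4% of the 896 windows of Krt8-ps. The other 382 Krt8-ps windows hold a difference. Of the shared windows, 146 cross a Krt8 exon junction. How reads that match both rows were assigned is not given in the sources used here. The antisense gene Gm36026 overlaps Krt8 by 271 bases and held 7 to 27 counts per epithelial library, against 17769 to 47659 in the Krt8 row. The other members share almost no window with another gene. Krt19, Krt20 and Krt23 share none, Krt7 shares 9 of 4045 windows and Krt18 shares 10 of 1388.

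Library totals ran from 7269103 to 9364551 counts over all rows. The sorted cells carried their defining markers: Csf1r, the receptor for the macrophage growth factor, averaged 1781 ± 172 CPM in cre macrophages and 1439 ± 146 CPM in wt macrophages (SD, n = 3 each), and Epcam, the epithelial sort antigen, averaged 476 ± 63.0 CPM in cre epithelium and 587 ± 77.8 CPM in wt epithelium (SD, n = 4 each). CPM denotes counts on a common depth after TMM scaling within the cell type. The Tsc2 row, counted over the whole gene and so no check of the deleted exons, averaged 28.3 ± 3.98 CPM in cre macrophages and 31.3 ± 7.46 CPM in wt macrophages (SD, n = 3 each). In epithelium 1 ribosomal RNA row took 7.37% to 26.7% of the counts in cre libraries and 18.5% to 31.8% in wt libraries. Mitochondrial genes took 10.4% to 10.7% in cre epithelium and 11.6% to 18.1% in wt epithelium, so that measure separated the genotypes. Across all genes tested in epithelium the log2 change by genotype had a Spearman correlation of 0.33 with the GC content of the transcript and of -0.37 with its length. The part of the ribosomal share and of the GC and length trend in the keratin results was measured only by the alternatives given beside them. No fit held the mitochondrial share as a covariate, so its part was not tested.

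Krt8 was among the most abundant transcripts of the sorted epithelium. Between genes, levels are compared in FPKM, which divides the count by length and depth. Krt8 averaged 1529 ± 106 FPKM in cre epithelium, the rank of 14 among all rows by mean level, and 969 ± 107 FPKM in wt epithelium, the rank of 33 (SD, n = 4 each). Krt19, the type I keratin without a tail domain, followed with 930 ± 251 FPKM in cre epithelium and 639 ± 97.9 FPKM in wt epithelium. Krt18 averaged 509 ± 41.4 FPKM in cre epithelium and 371 ± 20.4 FPKM in wt epithelium. The Krt8-ps row stood beside Krt18, at 522 ± 33.4 FPKM in cre epithelium and 329 ± 28.8 FPKM in wt epithelium, and in cre epithelium these neighbours in the order did not differ beyond their spread. Krt7, Krt20 and Krt23 came lower and spanned more than an order of magnitude. Krt7 averaged 101 ± 11.2 FPKM in cre epithelium and 71.0 ± 1.34 FPKM in wt epithelium. Krt20 averaged 21.9 ± 7.44 FPKM in cre epithelium and 26.2 ± 16.6 FPKM in wt epithelium. Krt23 was the scarcest member, at 7.22 ± 1.22 FPKM in cre epithelium and 4.95 ± 0.677 FPKM in wt epithelium.

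**Figure D2:**
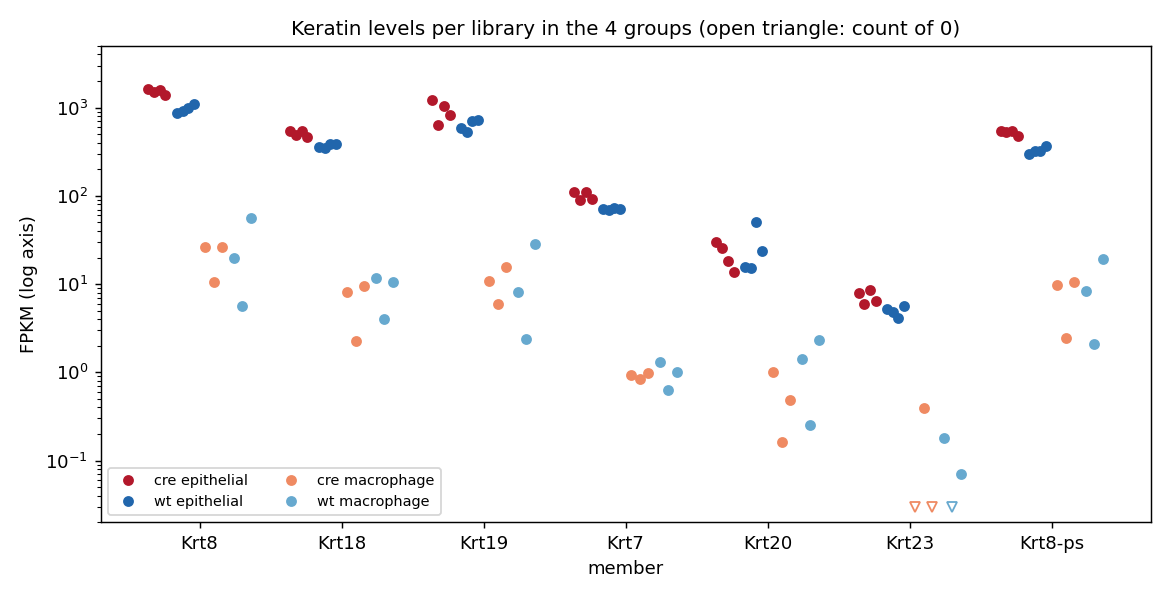
FPKM of the 7 members in each library on a log axis, with 1 point per library and the 4 groups side by side (cre left of wt). Every epithelial library lies above every macrophage library for each member, from 1529 and 969 FPKM for Krt8 in cre and wt epithelium down to Krt23, which had a count of 0 in 3 macrophage libraries (open triangles).

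The type II and type I sums were close to each other per length, with the Krt8-ps row left out of both. That row held 522 ± 33.4 FPKM in cre epithelium and 329 ± 28.8 FPKM in wt epithelium. Any Krt8 reads in it would raise the type II sum and the ratio of type II to type I, and their part was not tested. Type II keratins (Krt7 and Krt8) summed to 1630 ± 116 FPKM in cre epithelium and 1040 ± 108 FPKM in wt epithelium, and type I keratins (Krt18, Krt19, Krt20 and Krt23) to 1469 ± 290 FPKM in cre epithelium and 1041 ± 130 FPKM in wt epithelium (SD, n = 4 each). The ratio of type II to type I was 1.13 ± 0.185 in cre epithelium and 1.00 ± 0.0858 in wt epithelium, and the groups overlapped. Krt8 supplied most of the type II sum, since Krt7 made up 5.65% to 6.46% of it in cre epithelium and 6.02% to 7.65% in wt epithelium. Krt19 was the main type I keratin, with 55.1% to 67.5% of the type I sum in cre epithelium and 58.8% to 63.8% in wt epithelium. The ratio of Krt8 to its partner Krt18 was 2.97, 3.12, 2.94 and 2.98 in the cre libraries, and 2.39, 2.64, 2.52 and 2.897 in the wt libraries. These ranges did not overlap, although the closest libraries, 2.94 and 2.897, were nearly equal. The ratio was not set beside that of other gene pairs, and it leaves out any Krt8 reads in the Krt8-ps row.

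Levels of 4 members were higher in cre than in wt epithelium by edgeR's quasi-likelihood test with Benjamini-Hochberg adjustment over all genes. Krt8, Krt8-ps, Krt7 and Krt18 passed, Krt19, Krt23 and Krt20 did not, and none was lower. Of 13553 genes tested, 9.17% were called by genotype in this comparison and 5.64% were called higher in cre, which is the background for 4 of 7. The 4 include both Krt8 and Krt8-ps, whose rows may not be independent given their identical windows. Summed into 1 row they differed by 0.62 on the log2 scale (adjusted p = 0.00674), and then 3 of 6 members passed.

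Krt8, the general type II keratin, had 4486, 4191, 4459 and 3892 CPM in the cre epithelial libraries of mice 5, 8, 9 and 10, and 2484, 2639, 2831 and 3154 CPM in the wt libraries of mice 2, 4, 6 and 7. Every cre library lay above every wt library. The log2 difference was 0.62 (SE 0.0956, edgeR adjusted p = 0.00648). Its partner Krt18 had 1110.04, 985, 1112 and 957 CPM in the same cre libraries, and 764, 733, 825 and 799 CPM in the wt libraries. Again the groups did not overlap, and the log2 difference was 0.42 (SE 0.0883, edgeR adjusted p = 0.0131). For Krt7, the type II keratin of many glands and ducts, the cre libraries held 646, 525, 644 and 545 CPM and the wt libraries 430.5, 416, 432 and 423 CPM. Every cre library again lay above the wt range, which was narrow, and the log2 difference was 0.47 (SE 0.0929, edgeR adjusted p = 0.0103).

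For Krt19, the most abundant type I keratin here, the cre libraries held 2705, 1413, 2345 and 1881 CPM and the wt libraries 1371, 1214, 1649.5 and 1658 CPM. The library of cre mouse 8 lay within the wt range, so the groups overlapped. The log2 difference was 0.50 (SE 0.176, edgeR adjusted p = 0.0897). Krt23 was low in every library, at 17.6, 13.2, 19.0 and 14.5 CPM in cre and 12.05, 11.01, 9.40 and 12.9 CPM in wt. Its groups were separated only by the gap between 13.2 and 12.9 CPM, and the log2 difference was 0.50 (SE 0.176, edgeR adjusted p = 0.0813). Krt20, the keratin of mature surface cells, was the most variable member. The cre libraries held 82.3, 70.6, 49.8 and 37.7 CPM and the wt libraries 43.6, 43.5, 143 and 65.4 CPM, with the wt library of mouse 6 above all others. The log2 difference was -0.29 (SE 0.458, edgeR adjusted p = 0.729), and 0.24 without that library (adjusted p = 0.615). Krt7, Krt19 and Krt23 were lowest among cre libraries in that of mouse 8, where the ribosomal row took 26.7% of the counts. Without that library Krt19 and Krt23 passed as well, Krt19 at 0.65 (edgeR adjusted p = 0.00811) and Krt23 at 0.59 (adjusted p = 0.0440). In that fit 1947 of 13810 genes were called, against 1243 of 13553 with all libraries. The ribosomal row then took 7.37% to 10.6% in cre and 18.5% to 31.8% in wt, without overlap. The part of that share in these calls was not tested.

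**Figure D3:**
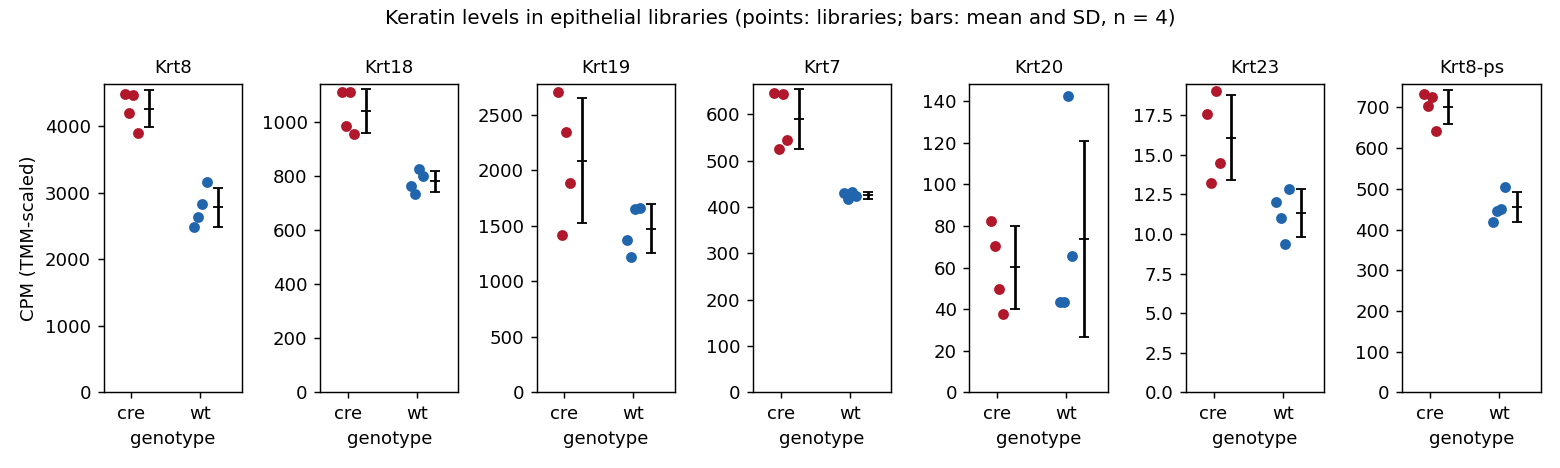
CPM of each member in the epithelial libraries, cre left of wt, on linear axes from 0, with points for libraries and bars for the mean and SD (n = 4 each). Krt8, Krt18, Krt7, Krt23 and Krt8-ps show no overlap between genotypes, whereas Krt19 and Krt20 do.

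In all, every cre library lay above every wt library for 5 of the 7 members, against 9.92% of all genes tested. Across the 8 epithelial libraries, levels of Krt8 and Krt18 on the log2 scale had a Pearson correlation of 0.96, Krt7 and Krt18 one of 0.98, and Krt8 and Krt19 one of 0.75. Krt20 stood apart, with correlations from -0.32 to 0.19 with the other members. These values describe libraries of both genotypes that share depth and composition. Epithelial markers other than keratins, a list of 18 genes, summed to 12753 ± 927 CPM in cre epithelium and 11194 ± 1545 CPM in wt epithelium (SD, n = 4 each). Such a sum weighs the most abundant genes most, and the genes did not all move alike. In cre and wt epithelium Epcam averaged 476 and 587 CPM and Cdh1 299 and 383 CPM, whereas Elf3 averaged 378 and 305 CPM. The sum of the 7 members over that of the 18 markers was 0.650 to 0.723 in the cre libraries. It was 0.477 to 0.580 in the wt libraries, so the groups did not overlap. Krt8 gave the largest part, with a mean ratio of 0.334 in cre epithelium and 0.250 in wt epithelium. Taken singly, Krt7, Krt8, Krt18 and Krt8-ps did not overlap between genotypes on this scale, whereas Krt19, Krt20 and Krt23 did. The mean ratio of Krt20 was lower in cre epithelium, 0.00472 against 0.00629 in wt epithelium. These ratios were not set beside those of other genes. Goblet cell markers, 9 genes with none at 0, summed to 13594 ± 1083 CPM in cre epithelium and 10971 ± 2359 CPM in wt epithelium. Stromal markers, 10 genes, summed to 2.499 to 3.67 CPM in cre epithelium, with 1 to 4 at 0, and to 4.91 to 8.92 CPM in wt epithelium, with 1 or 2 at 0. The part of these cell types in the keratin differences was not tested. In bulk samples, more keratin RNA per cell and a different mix of epithelial cells cannot be told apart. Macrophage markers, 14 genes none of which was at 0, summed to 31.7 to 83.2 CPM in cre epithelium and 57.6 to 123 CPM in wt epithelium.

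Both the calls and some of the sizes depended on the fit. DESeq2 called 6 of 7 members higher, against 10.6% of genes, leaving out Krt20. With the share of the ribosomal row as a covariate no member passed, and 3 genes were called in all. In that fit the log2 difference was 0.62 for Krt8 (adjusted p = 0.0544), 0.62 for Krt8-ps (adjusted p = 0.0511), 0.40 for Krt18 (adjusted p = 0.122) and 0.38 for Krt7 (adjusted p = 0.129). It was lower for Krt19, at 0.26 (adjusted p = 0.629), and Krt23, at 0.27 (adjusted p = 0.561), and positive for Krt20, at 0.36 (adjusted p = 0.820). Among males alone, 3 cre and 2 wt mice, Krt8 differed by 0.49 (adjusted p = 0.133), Krt19 by 0.19 (adjusted p = 0.616) and Krt20 by -0.98 (adjusted p = 0.168), and 0 members and 5 genes passed. With the trend in GC content and length removed, an alternative chosen after seeing the data, Krt8 differed by 0.44 (adjusted p = 0.0135) and Krt7 by 0.52 (adjusted p = 0.0122), while Krt18 fell short at 0.22 (adjusted p = 0.102). Without the cre library of mouse 9, Krt7 (adjusted p = 0.0514) and Krt18 (adjusted p = 0.0569) were no longer called. Krt18 was also lost without the cre library of mouse 5 (adjusted p = 0.0502).

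Macrophage libraries held all members at low levels. On a scale common to all 14 libraries, mean CPM was higher in epithelium than in macrophages by 97.7-fold for Krt7, 71.5-fold for Krt19, 61.3-fold for Krt18, 60.8-fold for Krt23, 55.8-fold for Krt8, 52.5-fold for Krt8-ps and 27.4-fold for Krt20. Since the members are named for the epithelium, these folds are descriptive. By mean FPKM the order within macrophages ran from Krt8 at 21.2 ± 9.15 FPKM in cre and 27.0 ± 25.8 FPKM in wt macrophages to Krt23 at 0.133 ± 0.230 FPKM in cre and 0.0841 ± 0.0919 FPKM in wt macrophages (SD, n = 3 each), with Krt20 below Krt7 in cre macrophages and above it in wt macrophages. Krt23 had counts of 0, 6 and 0 in the cre libraries of mice 8, 9 and 10, and 3, 0 and 1 in the wt libraries of mice 2, 4 and 6. Its level there rests on 10 counts in all and did not pass the filter on low counts in the macrophage fit. With no filter its log2 difference was 0.61 (SE 1.64, edgeR adjusted p = 0.928).

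Other epithelial transcripts were present as well. The 18 epithelial markers summed to 151 to 216 CPM in cre macrophages, with 1 or 2 of them at 0, and to 160 to 413 CPM in wt macrophages, with 2 or 3 at 0. Epcam itself was not at 0 and averaged 4.77 ± 1.56 CPM in cre macrophages and 8.91 ± 5.30 CPM in wt macrophages. The ratio of the summed members to this marker sum, which holds no keratin, was 0.284 to 0.585 in cre macrophages and 0.171 to 0.512 in wt macrophages. It was 0.477 to 0.723 over the epithelial libraries. Mesothelial cells, another keratin-rich type, left 4 to 5 of their 6 markers at 0 in cre macrophages and 5 to 6 at 0 in wt macrophages, with a summed level of at most 0.569 CPM. Stromal markers, 10 genes with none at 0, summed to 1048 to 2773 CPM in cre macrophages and 3201 to 5503 CPM in wt macrophages. The part of other cells or free RNA in the macrophage keratin counts was not tested.

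No member passed the test by genotype in macrophages. Krt8 had 57.1, 22.4 and 56.1 CPM in the cre libraries of mice 8, 9 and 10, and 41.5, 11.8 and 118 CPM in the wt libraries of mice 2, 4 and 6. The wt libraries alone spanned a wider range than all cre libraries, and the log2 difference was -0.34 (SE 0.871, edgeR adjusted p = 0.923). Krt19 had 18.7, 9.91 and 26.5 CPM in cre and 13.9, 4.10 and 48.1 CPM in wt macrophages, with the same wt library of mouse 6 highest. Krt18 had 12.7, 3.45 and 14.8 CPM in cre and 18.2, 6.22 and 16.5 CPM in wt macrophages. Krt7 varied least, at 4.25, 3.67 and 4.27 CPM in cre and 5.73, 2.78 and 4.50 CPM in wt macrophages. Log2 differences of the 6 members tested ran from -1.30 (Krt20, SE 0.854, adjusted p = 0.592) to -0.10 (Krt7, SE 0.380, adjusted p = 0.9499). By edgeR 0 of 6 passed and 0 had an unadjusted p under 0.05, and DESeq2 and limma on FPKM also called 0. Of all 14087 genes tested by edgeR, 0.944% were called, 0.731% being higher in cre, and 1802 genes had an unadjusted p under 0.05. Sex was uneven here, as all cre macrophages and 1 of the 3 wt libraries were male. With sex as a covariate the log2 difference was -1.39 for Krt8 (adjusted p = 0.7099), -1.39 for Krt19 (adjusted p = 0.660) and -2.10 for Krt20 (adjusted p = 0.660), and 0 members passed. Among males the wt arm is the library of mouse 6 alone, so only sizes are given. The log2 difference there was -1.38 for Krt8, -1.39 for Krt19 and -2.09 for Krt20. With standard errors of 0.785 to 0.871 for Krt8, Krt19, Krt20 and Krt8-ps, changes of the epithelial size were not detectable here. Without the wt library of mouse 6, which also held the highest sum of epithelial markers, the difference for Krt8 turned to 0.75 (adjusted p = 0.729) and that for Krt19 to 1.01 (adjusted p = 0.573).

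The genotype effect itself was compared between the cell types in 1 fit over all 14 libraries. Krt7 had the smallest unadjusted p, with an epithelial change that exceeded the macrophage change by 0.62 on the log2 scale (SE 0.264, edgeR adjusted p = 0.277). For Krt8 the difference of changes was 0.98 (SE 0.749, adjusted p = 0.575) and for Krt18 it was 0.88 (SE 0.508, adjusted p = 0.433). By edgeR 0 of 7 members passed and 1 had an unadjusted p under 0.05, and DESeq2 called 0. Of all 16375 genes tested by edgeR, 0.702% were called, 0.232% with a positive difference, and 2509 genes had an unadjusted p under 0.05. An effect particular to the epithelium was therefore not shown for any member.

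**Figure D4:**
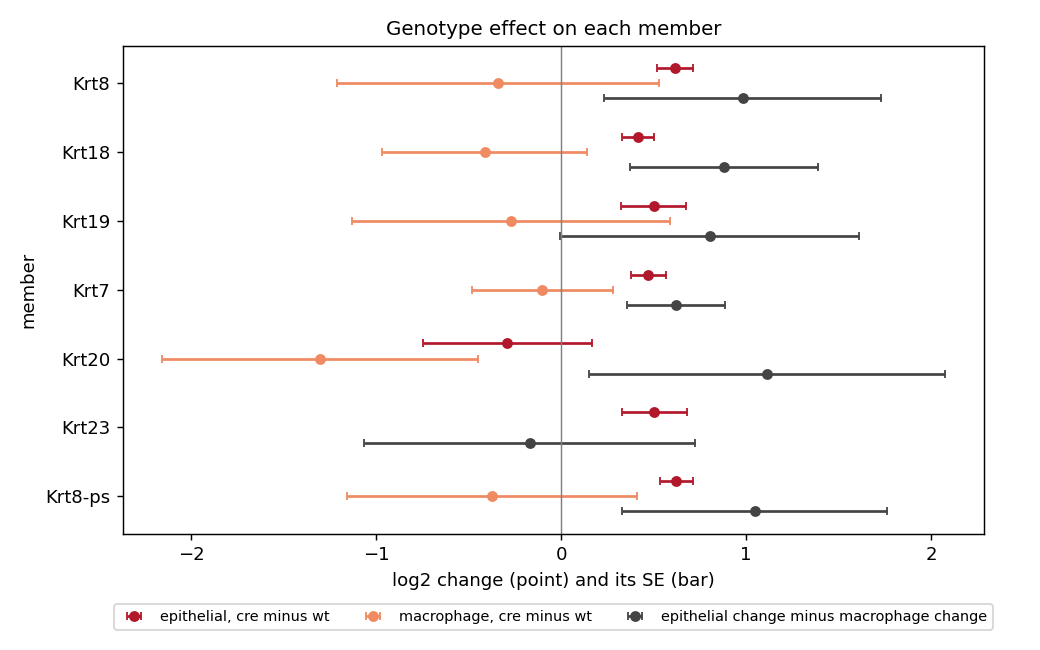
Log2 change of each member by genotype (point) with its SE (bar), from the edgeR fits: epithelium in red, macrophages in orange, and their difference in black. Epithelial bars are short and lie above 0 except for Krt20, at -0.29, whereas macrophage bars are wide, and Krt23 did not pass the filter on low counts in macrophages.

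Krt8-ps stayed at a near-constant fraction of Krt8 in the epithelium. The Krt8-ps row held 734, 703, 725 and 643 CPM in the cre libraries of mice 5, 8, 9 and 10, and 418, 446, 451 and 506 CPM in the wt libraries of mice 2, 4, 6 and 7. The groups did not overlap, and the log2 difference of 0.62 (SE 0.0901, edgeR adjusted p = 0.00648) was that of Krt8 to the second decimal. Of the counts of both rows together, Krt8-ps took 14.1%, 14.4%, 13.98% and 14.2% in the cre libraries and 14.4%, 14.5%, 13.7% and 13.8% in the wt libraries. The mean share was 14.1 ± 0.165% in cre epithelium and 14.1 ± 0.378% in wt epithelium (SD, n = 4 each). All exact 95% binomial (Clopper-Pearson) intervals lay between 13.3% and 14.9%, and they cover counting error only. Across the 8 libraries the 2 rows had a Pearson correlation of 0.996 on the log2 scale, as a description of rows that can exchange reads.

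In macrophages, with 105 to 1159 counts over both rows, the share was 15.3%, 9.87% and 16.0% in cre libraries and 17.0%, 15.2% and 14.2% in wt libraries. The interval reached down to 6.29% and up to 14.6% in the cre library of mouse 9, and from 8.97% to 23.6% in the wt library of mouse 4, so each of the 6 intervals held the epithelial mean of 14.1%. Per length, the Krt8-ps level was 0.341 ± 0.00465 of the Krt8 level in cre epithelium and 0.340 ± 0.0106 in wt epithelium, and 0.332 ± 0.0916 in cre macrophages and 0.380 ± 0.0420 in wt macrophages (SD, n = 4 each and n = 3 each). The share of Krt8 windows found in Krt8-ps, 26.9%, counts start positions in the transcript and is not on the scale of the shares of counts or FPKM. The counts cannot tell a transcript of the pseudogene from Krt8 reads assigned to it, and the part of read assignment in the share was not tested.

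**Figure D5:**
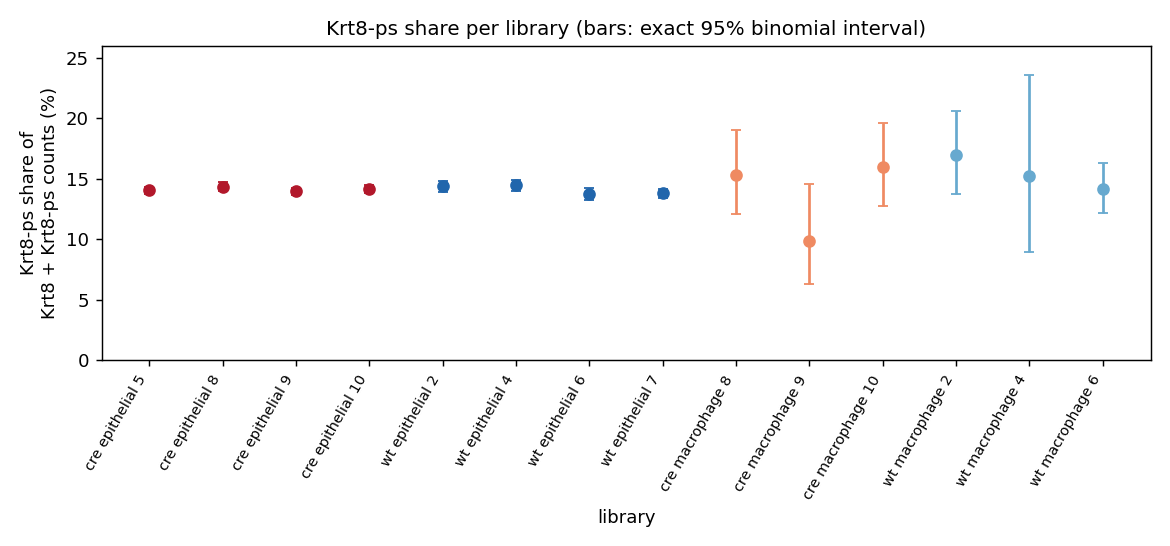
Share of Krt8-ps in the counts of Krt8 and Krt8-ps per library (%), with exact 95% binomial intervals, cre groups left of wt within each cell type. The 8 epithelial shares lie between 13.7% and 14.5%, and the 6 macrophage shares between 9.87% and 17.0% with wide intervals.

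Beyond the members, 48 other keratin rows were listed, of which 17 had no count in any library and 5 could be tested in epithelium. Of these 5, 0 were called by edgeR, 0 had an unadjusted p under 0.05 and DESeq2 called 0. Over all 13553 genes tested in epithelium, edgeR called 1243, and 3696 had an unadjusted p under 0.05. Krt87, a hair keratin whose end lies 724 bases beyond that of Krt7 on the opposite strand, had 15.8 to 26.2 CPM in cre epithelium and averaged 20.9 ± 5.94 CPM there against 16.7 ± 3.52 CPM in wt epithelium (SD, n = 4 each). Its log2 difference was 0.32 (SE 0.213, edgeR adjusted p = 0.345). Krt80 was higher in each macrophage library than in any epithelial library. It had 18.8, 19.4 and 23.1 CPM in cre macrophages and 37.1, 17.2 and 30.6 CPM in wt macrophages, but 0.0941 to 0.673 CPM in cre epithelium and 0.369 to 1.91 CPM in wt epithelium. In FPKM it averaged 4.204 ± 0.512 in cre macrophages and 5.84 ± 2.10 in wt macrophages (SD, n = 3 each), above Krt7 there. Krt10, Krt36 and Krt83, keratins of skin and hair, averaged at most 2.22 CPM in any group.

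The keratin partners did not follow the members as a group. Of 8 tested genes of desmosomes and plakins, which anchor keratin filaments at the membrane, 0 were higher and 1 was lower by edgeR, where 3.53% of all genes tested were lower, with a median log2 change of -0.39 against -0.05 over all genes. Unadjusted p was under 0.05 for 5 of the 8, against 3696 of all 13553 genes tested. DESeq2 called 2 lower, Dsg2 and Eppk1, against 6.53% of genes. The gene called by edgeR was Dsg2, a desmosomal cadherin, with 54.1 ± 7.39 CPM in cre and 81.3 ± 19.0 CPM in wt epithelium (log2 -0.59, edgeR adjusted p = 0.0330). Of 4 tested filament and lamina genes, with a median of -0.04, 1 was higher. It was Lmna, which encodes lamins A and C, with 510 ± 86.8 CPM in cre and 387 ± 17.8 CPM in wt epithelium (log2 0.40, adjusted p = 0.0438). Of 18 tested regulators and keratin-associated genes 0 passed by edgeR, with a median of -0.05. Unadjusted p was under 0.05 for 5 of the 18, a share similar to the 3696 of 13553 over all genes. DESeq2 called 2 higher and 2 lower, against 10.6% of genes higher and 6.53% lower. The smallest p-values belonged to the intestinal transcription factors Hnf4a, with a log2 change of -0.36 (edgeR adjusted p = 0.0532), and Cdx1, with -0.26 (adjusted p = 0.0701).

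Markers of both ends of the crypt had negative medians. Of 14 genes of mature surface colonocytes, the cells that KRT20 marks, 1 was higher and 0 were lower by edgeR and by DESeq2. The median log2 change was -0.32, with 10 of the 14 negative and 2 at an unadjusted p under 0.05. Of all 13553 genes tested, 7478 were negative and 3696 had an unadjusted p under 0.05, with a median of -0.05. Several negative surface genes varied widely in wt epithelium, such as Car4 (114 ± 122 CPM) and Aqp8 (79.6 ± 102 CPM, SD, n = 4 each). The higher gene was Car1, a carbonic anhydrase, with 2352 ± 294 CPM in cre and 1527 ± 135 CPM in wt epithelium (log2 0.62, edgeR adjusted p = 0.00701). Of 11 tested crypt base genes, 0 were higher and 2 were lower by edgeR, with a median of -0.34 and 10 of the 11 negative. Unadjusted p was under 0.05 for 4, and DESeq2 called 3 lower, Lgr5 being the third. Over all genes tested, 3.53% were lower by edgeR and 6.53% by DESeq2. The genes called by edgeR were Slc12a2, an ion cotransporter, with 55.7 ± 6.23 CPM in cre and 106 ± 15.04 CPM in wt epithelium (log2 -0.93, adjusted p = 0.00648), and Cd44, with 73.2 ± 8.67 CPM in cre and 134 ± 13.8 CPM in wt epithelium (log2 -0.87, adjusted p = 0.00648). Cd44 encodes an antigen of the sort gate itself.

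Among 9730 genes with at least 5 CPM, the members left out, the 3 most like Krt8 across the 8 epithelial libraries were Gm13292, Ripk4 and Cybc1, with Pearson correlations of 0.990, 0.986 and 0.986. With Krt8 left out as a member, Gm13292 also led for Krt8-ps, at 0.987, followed by Ephx2 at 0.987 and Cptp at 0.985. Krt23 was most like Tmem115, Strada and Emc10, at 0.994, 0.993 and 0.992. Krt20 had a set of its own, with Myo15b at 0.964, Tmigd1 at 0.961 and H2ac20 at 0.959. With 8 libraries of 2 genotypes and 9730 genes ranked, correlations of this size are the top of a long list and carry no test.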

How the data were processed

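Sorted-cell RNA was amplified with Smart-seq2, which primes on poly(A) tails and keeps no strand, and sequenced as 50-base single reads of Nextera XT libraries, per the labels' protocols. Alignment-related tools listed by the submitters' processing notes are STAR 2.5.2b and Picard 2.19.2, beside DESeq2 1.24.0 and the build GRCm38. Which program counted the reads, and how it treated reads with several matches, is not given in the sources used here. The authors deposited raw counts per gene, whole numbers that were tested as they stand, and a table of FPKM, which was used for levels between genes.

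Genotype was tested with edgeR 4.0.16 (R 4.3.3), using TMM scaling, filterByExpr with a minimum count of 10, robust quasi-likelihood fits within each cell type and Benjamini-Hochberg adjustment over all genes at 0.05. The SE of a log2 change was its size over the square root of the F statistic. The difference of effects used all 14 libraries in 4 groups. DESeq2 1.42.0 on counts and limma 3.58.1 on log2(FPKM + 1), for genes averaging at least 1 FPKM, were alternatives, as were other scalings, filters and covariates. The fits were also run on simulated counts, drawn independently for each gene and library. These counts held no trend with ribosomal share, GC content or length and no shared animal, so they do not bear on those features. Fold changes on the log2(FPKM + 1) scale understate those of low genes. Krt8 and Krt8-ps transcripts (GENCODE M21) were aligned and compared with Biopython 1.88, and binomial intervals came from scipy 1.17.1. No protein sequences were used here.

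The members, the gene lists and the rule for named genes (the members, the 8 other keratins with the highest group mean of at least 1 CPM, the called genes of each list or the 2 with the smallest p where none was called, and the genes most like 4 members) were chosen with earlier results of these data known. Where nothing says that libraries came from separate cultures or days, p-values measure the spread between these samples.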

Additional observations from a re-analysis of the deposited data

Results flagged for a closer look

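One of the 38 combinations of quantity and group checked held a library far from the others of its group, where chance would mark about 1 in 20. Only the epithelial groups, of 4 libraries each, were checked, since the rule needs more than the 3 libraries of each macrophage group. The level of Krt20 in percent of that of Krt8, both in FPKM, was 5.12 in the wt epithelial library of mouse 6, against 1.67 to 2.11 in the other wt epithelial libraries and 0.984 to 1.86 in the cre epithelial libraries. That library also had the largest ribosomal share of the epithelial libraries, 31.8%, and the part of that share in the Krt20 value was not tested.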

How the results depend on the processing

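Members called in epithelium, 4 in all, became 0 with the ribosomal share as a covariate, with FPKM and no filter, among males and in a fit of all 14 libraries, and 2 to 6 with single libraries left out; the cause was not tested. Genes called in epithelium, 1243, became 1956 with DESeq2, 3 with the ribosomal covariate, 0 with unfiltered FPKM (3860 at an unadjusted p under 0.05), 615 with the GC and length trend removed, 5 among males and 19 in the fit of all 14 libraries, and 178 to 1947 with single libraries left out. Genes called in macrophages, 133, became 498 with DESeq2, 299 with no filter, 2 with sex as a covariate, 47 with unfiltered FPKM, 32 among males (with 1 wt library, assumed to vary like the others) and 374 in the fit of all 14 libraries, and 29 to 87 with single libraries left out. Shares of Krt8-ps in FPKM, which divides by length, were 25.4% in cre and 25.4% in wt epithelium, and 24.7% in cre and 27.5% in wt macrophages.

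Directions turned only for changes that did not pass. Krt20 in epithelium was 0.36 with the ribosomal covariate. In macrophages, Krt8 was 0.0665, 0.10 and 0.0665 and Krt19 0.18, 0.26 and 0.18 with FPKM at a pseudocount of 1, at 0.1 and unfiltered. Leaving out single libraries gave ranges of -0.48 to 0.24 for Krt20 in epithelium, and in macrophages -0.34 to 0.15 for Krt7, -0.82 to 0.75 for Krt8, -0.77 to 0.0126 for Krt18, -0.76 to 1.01 for Krt19 and -0.84 to 0.53 for Krt8-ps. For the difference of changes the ranges were -0.0808 to 1.46 for Krt8, -0.44 to 1.29 for Krt19 and -1.34 to 4.21 for Krt23. Epithelial and macrophage libraries share title numbers, but no label states that a number marks 1 animal. Deviations of same-numbered libraries correlated at -0.06 to 0.09, and 3 of 6 macrophage libraries correlated best with their own number. With the replicate block for the difference of changes, 0 members and 8 genes were called, against 0 and 115 without it. Of all recomputed values, 576 kept their direction and side of the threshold, or moved by less than the replicate spread or 1.5-fold, 20 no longer passed, 6 newly passed, 32 moved and 19 turned. Depth limits Krt23 and Krt20 in macrophages most.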

Other observations

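Among the macrophage libraries, several keratins of stratified epithelium had counts almost only in 1. Krt4 and Krt13, the pair of non-keratinised squamous layers, had 111 and 69 counts in the cre macrophage library of mouse 10 and 0 in each of the other 5 macrophage libraries. Krt14, the basal-layer keratin, had 45 counts there and 0 in the others. Krt6a, Krt17 and Krt6b, chosen after their values were seen, had 38, 17 and 15 counts there, with 1 count of Krt17 in the cre library of mouse 8 as the only other. The 6 genes summed to 295 counts in that library, against 8 to 24 in each epithelial library. In the epithelial library of the same mouse they summed to 12. Other keratins of stratified epithelium, Krt5, Krt15 and Krt16, had only 6, 5 and 0 counts in the cre macrophage library of mouse 10. The simple epithelial members of that library, at 56.1 CPM of Krt8 and 26.5 CPM of Krt19, lay within the range of the other macrophage libraries.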
